A study of Mus musculus with 36 samples.

Results

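The genes described here are 8 genes of the ureteric trunk, the lining of the urinary tract and the collecting duct: the calbindin gene *Calb1*, the uroplakin genes *Upk1a*, *Upk1b*, *Upk2*, *Upk3a* and *Upk3b*, and the aquaporin genes *Aqp2* and *Aqp3*. They were chosen by name, and 6 of the 8 were found among the 22761 genes of the expression table; *Upk3a* and *Aqp2* were not analysed here. RNA was sequenced from 36 libraries in 9 groups of 4. Ex-fetu cells of the ureteric bud (UB) and of the nephron (NP) and stromal (SP) progenitor populations came from kidneys of CD1 mouse embryos at E11.5 and at E12.5, with the ureters removed, and each library pooled the kidneys of all embryos of a mouse. UB cells were selected by RET and EpCAM, NP cells by high ITGA8 and low PDGFRA, and SP cells by low ITGA8 and high PDGFRA. NP, SP, iNP and iSP cells were also gated as negative for EpCAM and RET, the bud markers, and for CD31. The mESC-derived groups were engineered ureteric bud cells (eUB), from the Sox9-mCherry-mESC line of the labels and sorted as EpCAM and mCherry positive, and induced nephron and stromal progenitors (iNP and iSP), from E14 mESC, and each of these libraries was a pool of embryoid bodies of 1 differentiation batch. Origin, genetic background and culture change together between the mESC-derived groups and their ex-fetu counterparts, and cannot be told apart. The mESC line and the differentiation protocol change together between eUB cells and both iNP and iSP cells, and cannot be told apart either.

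Levels are given as normalised CPM (reads scaled by the authors to a common library size), and the libraries held 13.0 to 52.5 M reads on genes. A level of 3 reads, taken as the limit of detection, was 0.0605 to 0.223 normalised CPM; it covers counting error only. For ex-fetu UB the title and the cell source label state opposite ages (E11.5 in one, E12.5 in the other), and the titles were followed. In eUB cells the markers of ureteric epithelium were present, with *Epcam*, *Cdh1*, *Gata3* and *Ret* at means of 649, 614, 229 and 473 normalised CPM; EpCAM was also used to sort them. The E12.5 UB replicate 1 stood apart: *Six2*, a nephron progenitor gene, was at 94.8 normalised CPM there and at 7.43 to 13.5 in the other E12.5 UB libraries, and *Pdgfra*, a stromal gene, was at 50.8 against 1.75 to 3.09. Replicate 1 also differed in E12.5 SP, with *Pdgfra* at 204 against 551 to 622. In E12.5 NP replicate 1, *Six2* was at 422 against 550 to 771 and *Pdgfra* at 7.26 against 1.34 to 2.13. Macrophage markers (5 genes) summed to 36.0 to 69.6 normalised CPM in the ex-fetu UB libraries and to 0.223 to 0.429 in the eUB libraries. In bulk RNA, fewer cells of a type and less RNA per cell cannot be told apart.

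Calbindin-D28k, the protein of *Calb1*, is a calcium-binding protein of the cytosol that is made in the ureteric bud and later in distal nephron and collecting duct cells. Uroplakins are membrane proteins that build the plaques on the surface of the urothelium, the lining of the ureter and bladder: UPK1A and UPK1B are tetraspanins, each of which pairs with a single-pass partner, UPK2 or a UPK3 protein. *Upk3b* is also known as a gene of mesothelium, the epithelium that covers organs. Aquaporins are channels for water: in the principal cells of the collecting duct AQP2 lies in vesicles and the apical membrane under the control of vasopressin, and AQP3, which also passes glycerol, lies in the basolateral membrane. The ureteric bud branches at its tips, while its trunk goes on to form the collecting duct and the ureter.

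The sequences before the start sites of *Upk3b* and *Aqp3* are shown because both genes were lower in eUB than in ex-fetu UB cells at both ages. Promoter entries of RefSeq on GRCm38.p6 were matched for 5 of the 8 genes. Each line holds the 250 bases upstream of the RefSeq start, 5′ to 3′ on the strand of the gene. The stretch before *Upk3b* is at chr5:136038246-136038495 on the + strand, and that before *Aqp3* is at chr4:41098184-41098433 on the − strand. Capitals mark a match to the motif TATAAA.
Upk3b: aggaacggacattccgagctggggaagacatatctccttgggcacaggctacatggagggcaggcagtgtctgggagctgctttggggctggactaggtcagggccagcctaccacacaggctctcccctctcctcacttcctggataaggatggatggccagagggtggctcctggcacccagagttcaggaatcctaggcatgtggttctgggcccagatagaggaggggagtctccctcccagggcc
Aqp3: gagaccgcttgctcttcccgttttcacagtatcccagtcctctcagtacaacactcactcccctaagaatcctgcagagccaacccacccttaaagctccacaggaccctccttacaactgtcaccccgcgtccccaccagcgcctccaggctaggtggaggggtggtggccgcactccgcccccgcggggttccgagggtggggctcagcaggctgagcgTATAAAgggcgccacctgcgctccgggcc
The match in *Aqp3* lies at positions -29 to -24 from the start, and 12.4% of the 32851 promoter windows of the same length hold one. The other 4 motifs searched, on both strands, were not found in either window. The binding motif of GATA factors, written AGATAA, occurs in 9.99% of all windows. That of TFAP2 factors, GCCNNNGGC, occurs in 13.7%. That of grainyhead factors, AACCNGGTT, occurs in 0.240%. That of forkhead factors, TGTTTAC, occurs in 3.17%. The G and C content was 60.8% before *Upk3b* and 64.0% before *Aqp3*, beside a median of 52.4%. Each match or lack of a match describes these letters in this window only.

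**Figure D1:**
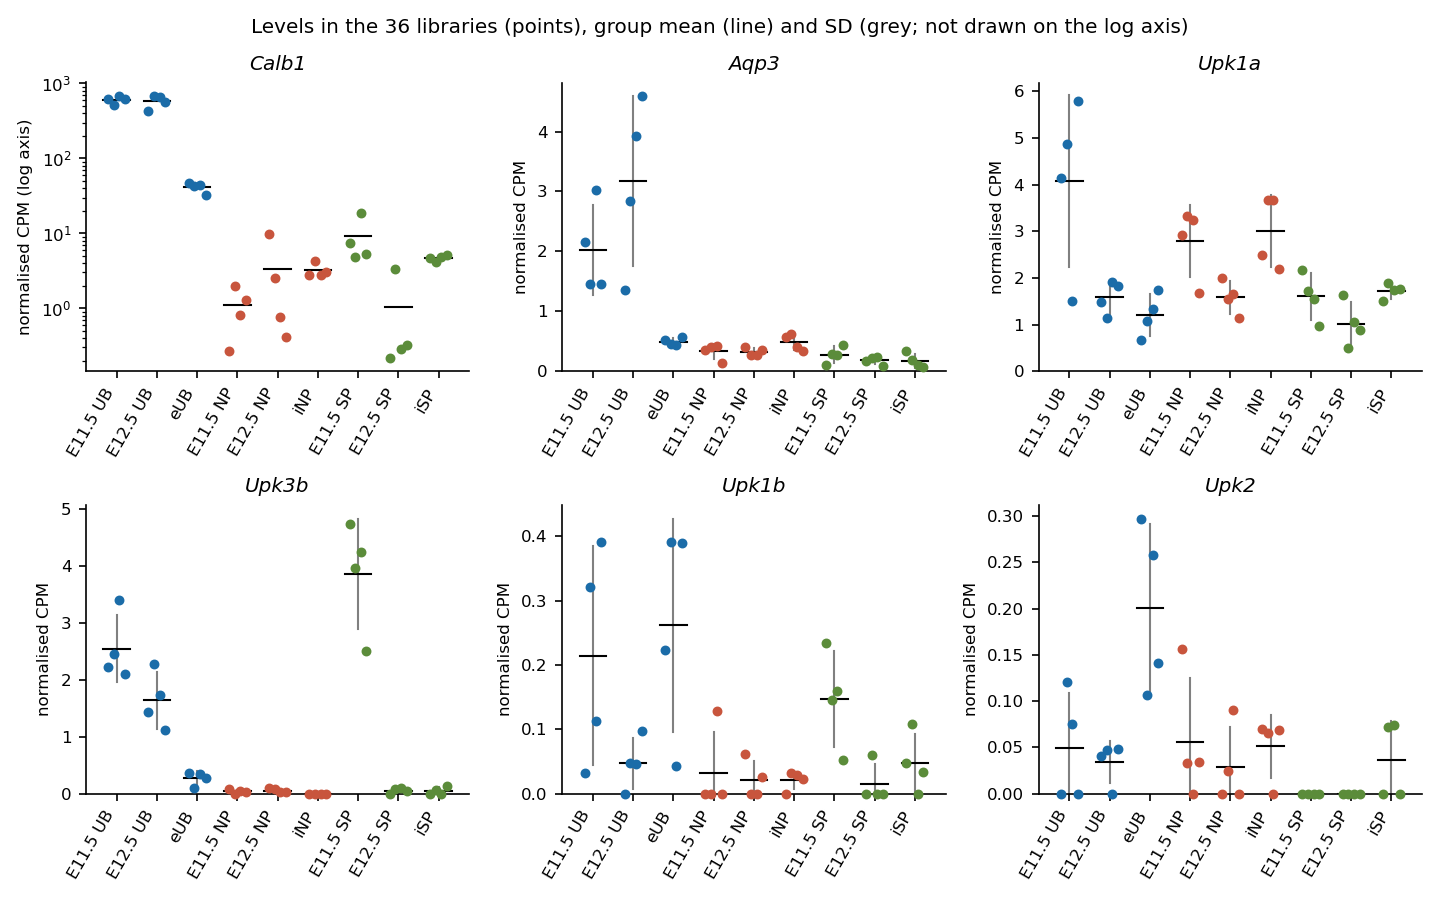
Normalised CPM of the 6 genes with values in the 36 libraries (points, 4 for each group; blue UB, red NP, green SP), with the group mean (black line) and SD (grey, stopped at 0; left out for Calb1, whose axis is logarithmic). Calb1 stepped down from ex-fetu UB (433 to 686) to eUB (31.9 to 46.9) to the mesenchymal groups, Aqp3 was at 1.35 or above in each ex-fetu UB library and at or under 0.623 in the others, and Upk3b was high in ex-fetu UB and in E11.5 SP.

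On the map of GRCm38, *Calb1* (ENSMUSG00000028222) lies at chr4:15881264-15908064 and *Aqp3* (ENSMUSG00000028435) at chr4:41092722-41098183. *Upk1a* (ENSMUSG00000006313) lies at chr7:30603092-30612847, *Upk3b* (ENSMUSG00000042985) at chr5:136038496-136046487, *Upk1b* (ENSMUSG00000049436) at chr16:38773184-38800328 and *Upk2* (ENSMUSG00000041523) at chr9:44452715-44454976. None of the 6 genes overlaps another annotated gene. Of the 6, *Calb1*, *Upk1a*, *Upk3b* and *Aqp3* were at 1 normalised CPM or more in 4 or more of the 36 libraries, and *Upk1b* and *Upk2* were not. Per kilobase of exon, the mean level in E11.5 UB cells was 126 normalised CPM for *Calb1*, 2.87 for *Upk1a*, 1.11 for *Aqp3*, 0.721 for *Upk3b*, 0.103 for *Upk1b* and 0.0453 for *Upk2*. On that scale *Calb1* stood well above the other members, whose levels were low throughout.

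The comparison of eUB with ex-fetu UB cells asks how far the engineered buds carry the trunk and lining genes of the buds in the embryo. Of the 6 genes with values, 4 were tested against E11.5 UB, and all 4 were called lower in eUB cells (adjusted p under 0.05), beside 28.5% of all genes tested that were called lower and 60.5% called in either direction. Against E12.5 UB, 3 of the 4 were called lower, beside 21.2% of all genes called lower and 44.4% called in either direction. These counts are a description: the test took in a gene if 4 or more of the 8 libraries reached 1 normalised CPM, and *Upk3b* and *Aqp3* were under 1 in all 4 eUB libraries, so they entered only through the ex-fetu UB libraries. The median log2 fold change of the 4 genes was -1.30 against E11.5 UB and -1.22 against E12.5 UB, beside 0.02 and -0.01 over all genes tested. Both comparisons share the eUB libraries.

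*Calb1* was measured at 617, 518, 686 and 612 normalised CPM in the E11.5 UB libraries and at 433, 682, 667 and 558 in the E12.5 UB libraries. In the eUB libraries it was at 46.9, 42.3, 44.4 and 31.9 normalised CPM. Each eUB library lay under each ex-fetu UB library, and the ex-fetu groups overlapped. The mean of 41.4 ± 6.57 (SD, n = 4) in eUB cells was 6.80% of the mean of 608 ± 68.8 in E11.5 UB cells and 7.07% of the mean of 585 ± 115.3 in E12.5 UB cells. On log2(normalised CPM + 1), the difference was -3.85 ± 0.13 (SE) against E11.5 UB (limma, adjusted p = 2.5e-08) and -3.78 ± 0.17 against E12.5 UB (adjusted p = 1.5e-06). The gene was still abundant in eUB cells in terms of reads, with 3760 reads in the 4 libraries. Between E12.5 and E11.5 UB cells the log2 difference was -0.07 (95% interval -0.40 to 0.26; adjusted p = 0.76), and it was 0.07 without E12.5 UB replicate 1. Without that replicate, the difference between eUB and E12.5 UB cells was -3.92. In the order of the 9 group means, *Calb1* in eUB cells came after both ex-fetu UB groups and before E11.5 SP, and its values overlapped with neither neighbour.

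*Aqp3* was at 2.16, 1.45, 3.02 and 1.46 normalised CPM in the E11.5 UB libraries and at 1.35, 2.84, 3.93 and 4.59 in the E12.5 UB libraries. The eUB libraries held 0.520, 0.461, 0.429 and 0.567 normalised CPM, from 46 reads in all. Again each eUB library lay under each ex-fetu library, whereas the ex-fetu groups overlapped. The eUB mean of 0.494 ± 0.0610 (SD, n = 4) was 24.4% of the E11.5 UB mean of 2.02 ± 0.746 and 15.6% of the E12.5 UB mean of 3.18 ± 1.41. The log2 difference was -0.99 ± 0.17 (SE) against E11.5 UB (limma, adjusted p = 0.00067) and -1.41 ± 0.25 against E12.5 UB (adjusted p = 0.002). In edgeR's test on the recovered reads with no filter on low values, it was -2.02 (adjusted p = 0.00031) and -2.65 (adjusted p = 0.00084). Between E12.5 and E11.5 UB cells the log2 difference of 0.43 ± 0.28 did not pass the test (limma, adjusted p = 0.29). The lowest E12.5 value, 1.35, was that of replicate 1, the library that stood apart, and without it the difference was 0.68 (adjusted p = 0.016).

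*Upk1a*, the tetraspanin of the uroplakin pair with *Upk2*, was at 4.13, 4.86, 1.51 and 5.8 normalised CPM in the E11.5 UB libraries. It was at 1.47, 1.14, 1.92 and 1.84 normalised CPM in the E12.5 UB libraries and at 0.668, 1.06, 1.33 and 1.74 in the eUB libraries. Replicate 3 of E11.5 UB sat among the E12.5 UB and eUB values, and the other 3 E11.5 UB libraries were above all of them. The eUB mean of 1.2 ± 0.449 (SD, n = 4) was 29.4% of the E11.5 UB mean of 4.08 ± 1.84 and 75.4% of the E12.5 UB mean of 1.59 ± 0.360. *Upk1a* was lower in eUB than in E11.5 UB cells by the fit across genes (log2 difference -1.14 ± 0.29 SE, limma, adjusted p = 0.0073), although the groups overlapped (exact permutation test, two-sided, p = 0.0571). Against E12.5 UB cells the log2 difference was -0.25 (95% interval -0.66 to 0.17; limma, adjusted p = 0.30). If the age of the UB samples is read from the cell source label in place of the title, these values change places.

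From E11.5 to E12.5 UB, *Upk1a* was the 1 gene of the 4 tested that was called, beside 26.5% of all genes tested. Its log2 difference was -0.89 ± 0.29 (SE; limma, adjusted p = 0.048), and the groups overlapped. The call was lost when any 1 of 6 of the 8 libraries was left out, with differences from -1.2 to -0.72 over all 8; it was kept without E11.5 UB replicate 3 and without E12.5 UB replicate 1. It was also lost with no filter on low values (adjusted p = 0.081) and with a pseudocount of 0.1 (adjusted p = 0.050).

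Of the 10 genes listed for the ureter and bladder lining, 6 had their lowest E11.5 UB value in the library with the low *Upk1a* value, replicate 3, and 2 had their highest there. The sum of the 10 was 107, 126, 89.4 and 122 normalised CPM in E11.5 UB replicates 1 to 4. *Elf3*, the most abundant of them, was highest in replicate 3, at 70.4 against 58.4 to 67.3. The genes with the widest gaps are given next, picked after their values had been seen. *Foxa1*, a forkhead factor of the bladder epithelium, was at 10.3, 12.3, 2.98 and 14.1 normalised CPM in the E11.5 UB libraries 1 to 4. *Trp63*, a gene of basal epithelial cells, was at 2.42, 6.59, 0.869 and 3.38, and *Foxa2*, a forkhead factor of endoderm, was at 2.33, 5.35, 0.151 and 2.99. *Shh*, a signal made by the lining of the ureter and bladder, was at 8.91, 22.1, 2.95 and 13.0 normalised CPM. The 3 endoderm markers together summed to 0.680 to 6.27 normalised CPM in the E11.5 UB libraries, to 0.331 to 3.15 in the E12.5 UB libraries, with the highest in replicate 1, and to 0.730 to 0.965 in the eUB libraries. *Foxa2* stayed at or under 0.142 normalised CPM in the E12.5 UB libraries and was at 0.149 to 0.258 in the eUB libraries. The same E11.5 replicate 3 had the highest *Calb1*, *Aqp3* and *Upk3b* values of its group. The part of these other cells or genes in the *Upk1a* difference was not tested.

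**Figure D2:**
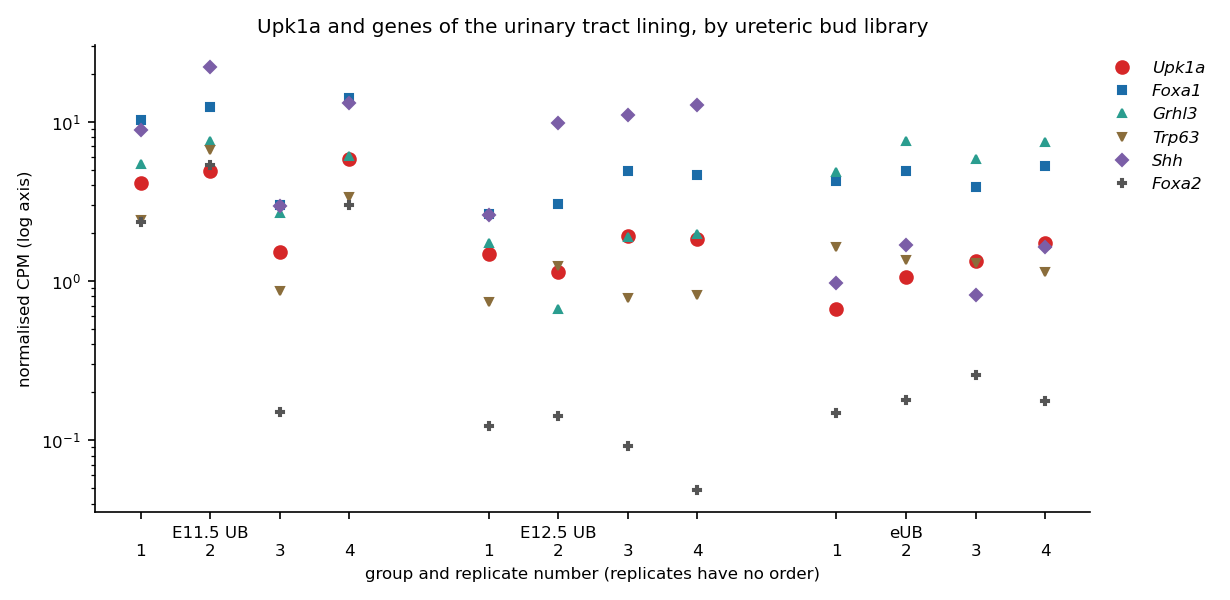
Normalised CPM (log axis) of Upk1a and 5 genes of the urinary tract lining or endoderm in the 12 ureteric bud libraries, by group and replicate number. In E11.5 UB, replicate 3 is the lowest library for all 6 genes, with Upk1a at 1.51 against 4.13 to 5.8 and Foxa2 at 0.151 against 2.33 to 5.35.

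*Upk3b*, the partner in the second kind of uroplakin pair, was at 2.23, 2.45, 3.40 and 2.10 normalised CPM in the E11.5 UB libraries and at 1.43, 2.27, 1.74 and 1.11 in the E12.5 UB libraries. In the eUB libraries it was at 0.371, 0.106, 0.344 and 0.283 normalised CPM, from 24 reads in all. All 4 eUB libraries were under all 8 ex-fetu UB libraries. The eUB mean of 0.276 ± 0.119 (SD, n = 4) was 10.9% of the E11.5 UB mean of 2.54 ± 0.589 and 16.9% of the E12.5 UB mean of 1.64 ± 0.494. The log2 difference was -1.46 ± 0.14 (SE) against E11.5 UB (limma, adjusted p = 1.7e-05) and -1.03 ± 0.16 against E12.5 UB (adjusted p = 0.0011). By edgeR with no filter on low values it was -3.25 (adjusted p = 1.7e-05) and -2.57 (adjusted p = 0.0015). Between the ex-fetu ages the difference of -0.43 ± 0.18 did not pass the test (limma, adjusted p = 0.10), but did in a fit of all 36 libraries (adjusted p = 0.014). *Upk3bl*, a relative of *Upk3b* named here after its values were seen, went the other way: it was at 3.17 ± 0.643 normalised CPM in E11.5 UB, 1.45 ± 0.565 in E12.5 UB and 4.51 ± 0.871 in eUB cells, higher in eUB than in E11.5 UB (log2 difference 0.40, limma, adjusted p = 0.044), a call lost by edgeR with no filter (0.51, adjusted p = 0.070), and than in E12.5 UB (1.19, limma, adjusted p = 0.0014; edgeR with no filter 1.66, adjusted p = 0.0029). Whether the counting kept the reads of the 2 relatives apart was not tested.

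*Upk1b*, the tetraspanin that pairs with the UPK3 proteins, was near the limit of detection. It was at 0.0323, 0.322, 0.113 and 0.391 normalised CPM in the E11.5 UB libraries, at 0, 0.0473, 0.0457 and 0.0966 in the E12.5 UB libraries and at 0.223, 0.390, 0.0429 and 0.390 in the eUB libraries. These values rest on 23, 4 and 26 reads, and the eUB range overlapped both ex-fetu ranges. *Upk2*, which marks the outer urothelial cells, was at 0.297, 0.106, 0.258 and 0.142 normalised CPM in the eUB libraries, from 17 reads. It was at 0, 0.121, 0.0755 and 0 in the E11.5 UB libraries and at 0.0409, 0.0473, 0 and 0.0483 in the E12.5 UB libraries, from 5 and 3 reads. The *Upk2* values in eUB cells lay above those in E12.5 UB cells and overlapped those in E11.5 UB cells. With no filter on low values, *Upk2* was higher in eUB than in E11.5 UB cells by limma (adjusted p = 0.043) but not by edgeR (adjusted p = 0.12), and higher than in E12.5 UB cells by both (adjusted p = 0.028 and 0.039). *Upk1b* passed neither test in these comparisons (adjusted p = 0.75 and 0.76 against E11.5 UB, and 0.064 and 0.057 against E12.5 UB). By edgeR with no filter, 43.3% of all genes were called against E11.5 UB and 29.6% against E12.5 UB.

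**Figure D3:**
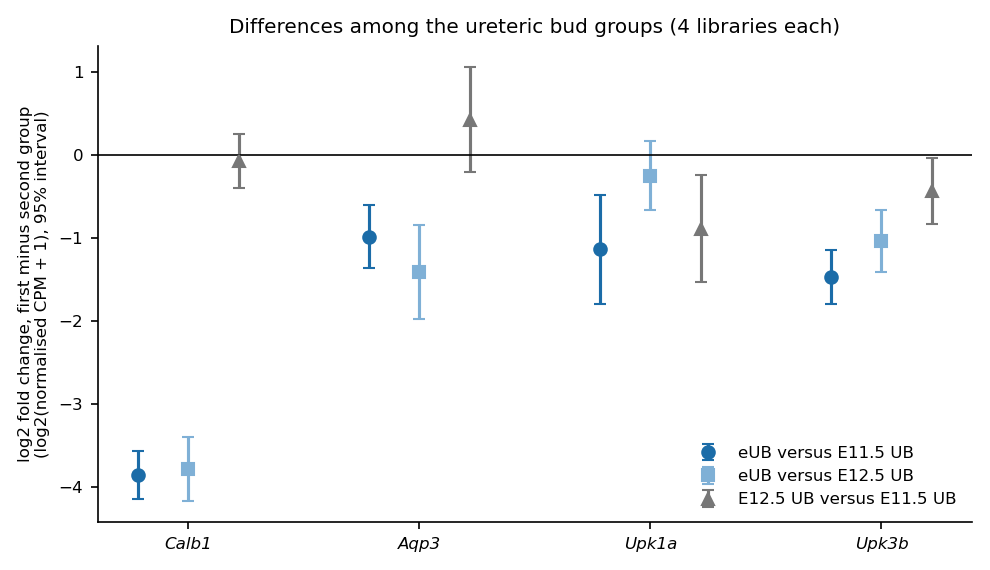
Log2 fold changes on log2(normalised CPM + 1) with 95% intervals for the 4 genes tested, each comparison between 4 and 4 libraries: eUB against E11.5 UB (circles), eUB against E12.5 UB (squares) and E12.5 against E11.5 UB (triangles). The eUB differences are below 0 for each gene, from -3.85 for Calb1 to -0.25 for Upk1a against E12.5 UB, whose interval spans 0, while the ages differ little for Calb1 (-0.07).

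Other genes of the ureteric trunk were followed from a list of 10. The counts of this and the following lists are read beside the share of all genes called by limma in either direction, 60.5% against E11.5 UB and 44.4% against E12.5 UB. Of these, 7 were lower in eUB than in E11.5 UB cells, 1 was higher and 2 did not pass the test, with a median log2 difference of -1.14. Against E12.5 UB, 8 were lower, 1 higher and 1 did not pass, with a median of -1.38. *Wnt9b*, the signal by which the bud induces nephrons, fell from 308 ± 47.5 normalised CPM in E11.5 UB to 66.7 ± 12.3 in eUB cells (SD, n = 4; log2 difference -2.19, limma, adjusted p = 1.7e-06). The member of the list that rose was *Krt23*, a keratin gene, at 10.9 ± 2.11 in E11.5 UB, 19.2 ± 2.62 in E12.5 UB and 56.8 ± 5.29 normalised CPM in eUB cells (log2 difference 2.29 against E11.5 UB, adjusted p = 4.6e-07). *Gata3*, abundant in all 3 groups, was at 240 ± 21.4 in E11.5 UB and 229 ± 13.6 in eUB cells and did not pass (adjusted p = 0.52). Of 7 genes of the ureteric tip, 2 were higher and 1 lower in eUB than in E11.5 UB cells and 4 did not pass, with a median log2 difference of 0.00. *Sox8* was at 22.7 ± 3.17 in E11.5 UB and 86.9 ± 12.8 normalised CPM in eUB cells, and *Ret*, the GDNF receptor of the tip, was at 364 ± 3.64 and 473 ± 35.7 normalised CPM (adjusted p = 0.0014). Against E12.5 UB, 3 genes of the tip list were higher, 3 lower and 1 did not pass, with a median of -0.33, beside -0.01 over all genes tested. RET itself was used to sort the ex-fetu UB cells and not the eUB cells. The eUB cells were sorted on mCherry, in a line that the labels call Sox9-mCherry, while the study also describes a Sox8-mCherry line, and which of these 2 genes of the list drove the reporter in the sort cannot be told apart here. The values of *Sox8* are therefore a description.

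Among 10 genes of the ureter and bladder lining, 8 were tested against E11.5 UB: 3 were lower in eUB cells, 2 were higher and 3 did not pass, with a median log2 difference of -0.76. The 5 called of 8 are near the 60.5% of all genes called. The 3 that fell were *Shh*, from 11.8 ± 8.05 to 1.27 ± 0.442 normalised CPM (limma, adjusted p = 0.0017), *Krt5*, a keratin of basal cells, from 6.21 ± 3.84 to 0.432 ± 0.236 (adjusted p = 0.0019), and *Krt20*, a keratin of the outer urothelial cells, from 4.87 ± 1.08 to 0.430 ± 0.0940 (adjusted p = 2.2e-06). *Krt5* and *Krt20* were under 1 normalised CPM in all 4 eUB libraries and entered this test only through E11.5 UB. By edgeR with no filter on low values, all 10 genes were tested against E11.5 UB: 6 were lower in eUB cells, *Krt5* (adjusted p = 0.00022), *Krt20* (5.5e-07) and *Shh* (0.00027) among them, 1 was higher and 3 did not pass, beside 43.3% of all genes called. By the same test against E12.5 UB, 2 were lower, 2 higher and 6 did not pass, beside 29.6% of all genes, and neither *Krt5* (adjusted p = 0.22) nor *Krt20* (0.10) passed. The most abundant gene of the list, *Elf3*, was at 65.6 ± 5.09 in E11.5 UB and rose to 84.0 ± 10.4 normalised CPM in eUB cells (adjusted p = 0.012). Against E12.5 UB cells, 6 genes of the list were tested, of which 1 was lower, 2 were higher and 3 did not pass, with a median of 0.28, over fewer genes than against E11.5 UB. By edgeR with no filter, over the same 10 genes, the median was -1.20 against E11.5 UB and 0.062 against E12.5 UB. From E11.5 to E12.5 UB, 3 of the 9 genes tested fell, *Krt20*, *Grhl3* and *Upk3bl*, and 6 did not pass (limma), near the 26.5% of all genes called between these ages; the median log2 difference was -1.02, beside 0.03 over all genes tested.

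Genes of collecting duct function did not move in 1 direction. Of the 12 listed, 7 were tested against E11.5 UB, and in eUB cells 4 were lower, 2 higher and 1 did not pass, with a median log2 difference of -0.55; the counts against E12.5 UB were also 4, 2 and 1, with a median of -1.28. *Slc14a2*, a urea transporter of the collecting duct, rose from 2.35 ± 0.569 to 15.4 ± 2.02 normalised CPM (log2 difference 2.30, limma, adjusted p = 1e-06). *Hsd11b2*, whose enzyme shields the mineralocorticoid receptor from glucocorticoids, fell from 38.8 ± 3.82 to 12.6 ± 2.41 normalised CPM (adjusted p = 6.3e-06). *Scnn1b*, a subunit of the epithelial sodium channel, fell from 11.7 ± 0.495 to 4.81 ± 1.08 normalised CPM (adjusted p = 6.4e-05). *Tfcp2l1*, a transcription factor of collecting duct cells and the most abundant gene of the list, was at 185 ± 24.4 in E11.5 UB, 362 ± 140 in E12.5 UB and 87.2 ± 14.3 normalised CPM in eUB cells (adjusted p = 8.6e-05 against E11.5 UB). Of the other aquaporin genes, 2 of the 10 listed were tested: *Aqp11*, an intracellular aquaporin, was at 4.30 ± 0.337 in E11.5 UB and 7.76 ± 1.70 normalised CPM in eUB cells (adjusted p = 0.0017), but at 14.4 ± 5.0 in E12.5 UB, above eUB (adjusted p = 0.041), and *Aqp4*, a basolateral water channel, fell against E11.5 UB (log2 difference -0.55, adjusted p = 0.012) and did not pass against E12.5 UB (-0.42, adjusted p = 0.063). Thus *Aqp3* and *Aqp4* were lower and *Aqp11* higher in eUB than in E11.5 UB cells. The relatives *Calb2* and *S100g* of *Calb1* were at or under 0.503 normalised CPM in the ex-fetu UB libraries and had no read in the eUB libraries.

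The comparison of UB with mesenchymal cells asks which of the genes separate the bud from its neighbours. At E11.5, 3 of the 4 genes tested were called higher in UB than in NP cells, beside 28.7% of all genes called higher and 60.2% called in either direction, and 3 of 4 were higher than in SP cells, beside 26.8% and 53.6%. At E12.5 the counts were also 3 of 4 and 3 of 4, beside 18.4% called higher and 32.7% in either direction against NP, and 24.6% and 46.4% against SP. *Aqp3*, and *Upk3b* in the comparisons other than with E11.5 SP, entered these tests only through the UB libraries, so the counts are again a description.

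Relative to the group mean, *Calb1* in the ex-fetu mesenchyme varied between libraries far more than in the bud. It was at 0.273, 1.98, 0.810 and 1.30 normalised CPM in E11.5 NP, at 9.82, 2.53, 0.770 and 0.412 in E12.5 NP, at 7.51, 4.89, 18.6 and 5.33 in E11.5 SP and at 0.217, 3.39, 0.287 and 0.321 in E12.5 SP. The highest value, 18.6, was far below the lowest in ex-fetu UB, 433. The E11.5 UB mean was 558 times the E11.5 NP mean and 67.0 times the E11.5 SP mean, and the E12.5 UB mean was 173 times the E12.5 NP mean and 556 times the E12.5 SP mean. The 4 log2 differences were between 6.09 and 8.38 (limma, adjusted p from 9e-12 to 9.4e-06).

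In those libraries *Calb1* was high where other ureteric genes were high. In E11.5 SP replicate 3, which had 18.6 normalised CPM of *Calb1*, *Wnt7b* was at 3.65, *Wnt9b* at 7.15 and *Cdh1*, the epithelial cadherin, at 17.7, each the highest of the group. In E12.5 NP replicate 1, with 9.82 of *Calb1*, *Wnt7b* was at 1.48, *Wnt9b* at 3.48 and *Cdh1* at 12.6, again the highest of the group. In E12.5 SP replicate 2, with 3.39 of *Calb1*, the same genes were at 0.544, 0.746 and 3.16. As a share of the level in E11.5 UB cells, the E11.5 SP mean was 1.49% for *Calb1*, 1.47% for *Wnt7b*, 1.25% for *Wnt9b* and 1.37% for *Cdh1*. The sort had gated these cells as negative for EpCAM and RET. The part of ureteric cells in the *Calb1* of these libraries was not tested.

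In the mESC-derived mesenchyme the picture was different. *Calb1* was at 2.78, 4.23, 2.78 and 3.05 normalised CPM in iNP and at 4.74, 4.08, 4.88 and 5.14 in iSP, with little spread. The iNP mean was 7.76% and the iSP mean 11.4% of the eUB mean, whereas *Wnt9b* was at 0.286% and 0.0730% of its eUB mean and *Cdh1* at 2.12% and 0.801%. These shares depend on the eUB means, which were 6.80% of the E11.5 UB mean for *Calb1*, 21.7% for *Wnt9b* and 87.5% for *Cdh1*. The iNP and iSP means of *Calb1*, 3.21 and 4.71 normalised CPM, lay within the ex-fetu mesenchymal means of 1.05 to 9.08. Between eUB and iNP cells, 2 of the 2 genes tested were called, beside 52.2% of all genes, and between eUB and iSP cells 1 of 2, beside 64.7%. *Calb1* was 12.9 times higher in eUB than in iNP cells (log2 difference 3.33 ± 0.16 SE, limma, adjusted p = 1.4e-07) and 8.79 times higher than in iSP cells (2.88 ± 0.13, adjusted p = 3.3e-08).

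**Figure D4:**
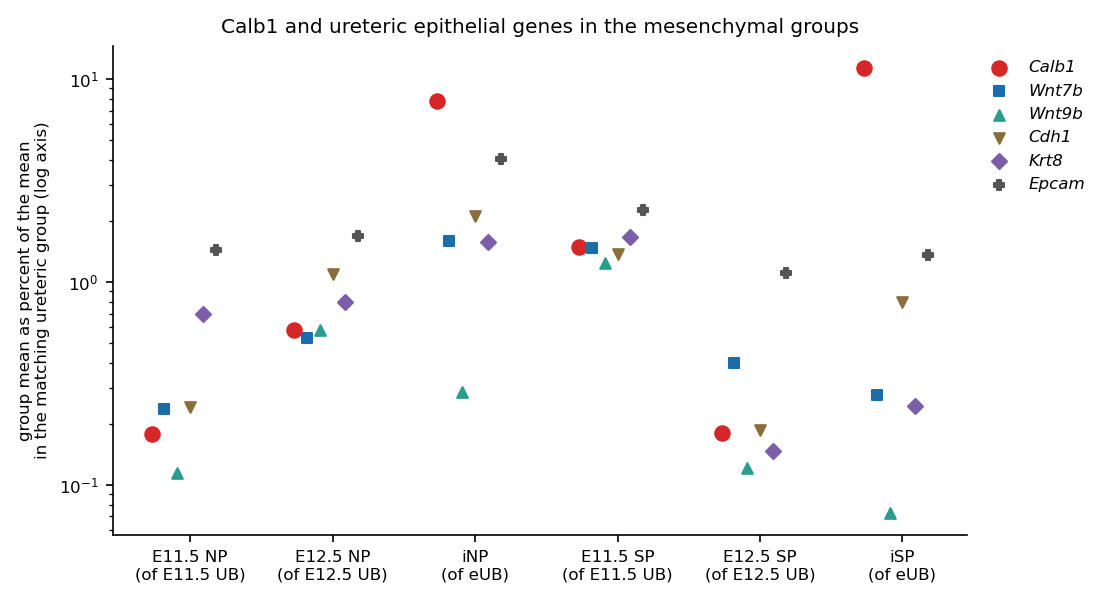
Mean level in each mesenchymal group as a percent of the mean in the ureteric group of the same age or origin (log axis), for Calb1 and 5 genes of ureteric epithelium. In E11.5 SP all 6 genes lie between 1.25% and 2.26%, while in iNP and iSP Calb1 (7.76% and 11.4%) lies above the other 5 genes, which range from 0.0730% to 4.04%. The eUB mean of Calb1, the base of its iNP and iSP shares, is itself 6.80% of the E11.5 UB mean.

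Within the mesenchyme, *Calb1* was higher in iNP (3.21 ± 0.692 normalised CPM, SD, n = 4) than in E11.5 NP (1.09 ± 0.727), with a log2 difference of 1.07 ± 0.24 (SE; limma, adjusted p = 0.0033). It was 1 of the 2 genes tested there, beside 64.7% of all genes called. Against E12.5 NP (3.38 ± 4.39) it did not pass (log2 difference 0.42, adjusted p = 0.55), and without E12.5 NP replicate 1, which held 9.82, the difference was 1.01 (adjusted p = 0.022). In iSP cells *Calb1* was at 4.71 ± 0.448, beside 9.08 ± 6.44 in E11.5 SP (log2 difference -0.64, adjusted p = 0.11) and 1.05 ± 1.56 in E12.5 SP (1.71 ± 0.37, adjusted p = 0.0029). The former varied with the library left out: without E11.5 SP replicate 3, which held 18.6, it was -0.26 (adjusted p = 0.17), and without replicate 2 it was -0.84 and passed (adjusted p = 0.0496). It also passed by edgeR with no filter on low values (adjusted p = 0.04998), and the other alternatives did not turn it into a call. From E11.5 to E12.5 SP it fell by 2.35 on the log2 scale (SE 0.48, adjusted p = 0.018). That call was lost by edgeR (adjusted p = 0.060) and without E11.5 SP replicate 1 (0.051), E12.5 SP replicate 3 (0.063) or E12.5 SP replicate 4 (0.067).

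*Aqp3*, like *Calb1*, was highest in both ex-fetu UB groups, with no overlap with the next group. Outside ex-fetu UB it was at or under 0.623 normalised CPM in each of the 28 libraries. In the mesenchyme it ranged from 0.0676 to 0.623 normalised CPM, with group means from 0.174 ± 0.119 in iSP to 0.484 ± 0.131 in iNP. The eUB mean of 0.494 and the iNP mean of 0.484 did not differ beyond their spread (edgeR with no filter, log2 difference 0.04, adjusted p = 0.95), and the iNP, NP, SP and iSP groups overlapped with their neighbours in the order. Against iSP, eUB cells were higher (edgeR with no filter, log2 difference 1.55, adjusted p = 0.014), with 49.6% of all genes called in that test. In the ex-fetu comparisons *Aqp3* was higher in UB than in NP cells by 1.16 ± 0.17 (SE) on the log2 scale at E11.5 (limma, adjusted p = 8.7e-05) and by 1.58 ± 0.25 at E12.5 (adjusted p = 0.001). It was higher than in SP cells by 1.22 ± 0.18 (adjusted p = 0.00022) and by 1.75 ± 0.25 (adjusted p = 0.0004). *Aqp3* entered these ex-fetu tests only through the UB libraries, and its calls were kept by edgeR with no filter on low values.

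*Upk1a* overlapped between the bud and the mesenchyme. It was at 2.92, 3.32, 3.24 and 1.68 normalised CPM in E11.5 NP, at 2.0, 1.54, 1.65 and 1.13 in E12.5 NP and at 2.5, 3.67, 3.66 and 2.18 in iNP. In the stroma it was at 2.17, 1.73, 1.55 and 0.962 in E11.5 SP, at 1.63, 0.504, 1.05 and 0.872 in E12.5 SP and at 1.5, 1.9, 1.74 and 1.76 in iSP. Each pair of neighbours in the order of the 9 group means overlapped, from 4.08 in E11.5 UB and 3.0 in iNP down to 1.2 in eUB and 1.01 in E12.5 SP. The difference between UB and NP cells was 0.35 on the log2 scale at E11.5 (95% interval -0.25 to 0.96; limma, adjusted p = 0.29) and 0.00 at E12.5 (-0.35 to 0.36; adjusted p = 0.99). Without E11.5 UB replicate 3, the library with the lowest *Upk1a* of its group, the E11.5 difference was 0.66 (adjusted p = 0.0098). Against E11.5 SP, *Upk1a* was higher in E11.5 UB by 0.89 ± 0.29 (adjusted p = 0.025), a call lost without E11.5 UB replicate 1 (adjusted p = 0.060), 2 (0.071) or 4 (0.073) or E11.5 SP replicate 3 (0.052). At E12.5 the difference from SP was 0.38 (adjusted p = 0.13), and without E12.5 SP replicate 1 it passed (0.52, adjusted p = 0.033). These values depend on which label gives the age of the UB samples. With the cell source label, *Upk1a* in the UB samples of E11.5 was lower than in NP (-0.53, adjusted p = 0.032) and did not differ by the test from SP (0.0043, adjusted p = 0.99). In those of E12.5 it was then higher than in NP (0.89, adjusted p = 0.025) and in SP (1.27, adjusted p = 0.0049).

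Among the mESC-derived groups the order of *Upk1a* was the reverse of a bud gene. It was lower in eUB than in iNP cells, with no overlap (log2 difference -0.87 ± 0.19 SE, limma, adjusted p = 0.0039). The difference from iSP cells, -0.33, did not pass (adjusted p = 0.078), although it did with upper-quartile scaling (adjusted p = 0.042) and without eUB replicate 4 (-0.44, adjusted p = 0.020). *Upk1a* was higher in iNP than in E12.5 NP cells (0.62 ± 0.17, adjusted p = 0.015), where it was 1 of 2 genes tested, beside 44.3% of all genes called. The difference between iNP and E11.5 NP cells was 0.08 (95% interval -0.35 to 0.52; adjusted p = 0.72). In iSP cells *Upk1a* was higher than in E12.5 SP (0.46 ± 0.17, adjusted p = 0.035), and both genes tested there were called, beside 62.1% of all genes. That call of *Upk1a* was lost in edgeR's test (adjusted p = 0.068) and when any 1 of 6 of the 8 libraries was left out, with differences between 0.33 and 0.60 over all 8. The difference between iSP and E11.5 SP cells was 0.08 (95% interval -0.25 to 0.42; adjusted p = 0.64). From E11.5 to E12.5 NP neither gene tested was called by limma, beside 6.34% of all genes: *Upk1a* had a log2 difference of -0.54 (unadjusted p = 0.015, adjusted p = 0.11; without E11.5 NP replicate 4, -0.70, adjusted p = 0.047) and *Calb1* of 0.65 (adjusted p = 0.54).

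*Upk3b* had its highest mean outside the bud, in E11.5 SP. It was at 4.74, 3.96, 4.25 and 2.5 normalised CPM in E11.5 SP, from 508 reads, and at 0, 0.0806, 0.0956 and 0.0459 in E12.5 SP, from 7 reads. In iSP it was at 0, 0.0716, 0 and 0.135 normalised CPM, from 6 reads. All 4 E11.5 SP libraries were above all 8 others. The E11.5 SP mean was 3.86 ± 0.965 (SD, n = 4), and the E12.5 SP and iSP means, 0.0555 and 0.0517, were under the limit of detection of each library of their groups. The gene fell by 2.18 on the log2 scale from E11.5 to E12.5 SP (SE 0.17, limma, adjusted p = 0.00054) and was lower in iSP than in E11.5 SP, with a log2 difference of -2.19 ± 0.16 (adjusted p = 2.6e-06). Of the 3 genes tested, 2 were called between the SP ages, beside 8.52% of all genes, and 1 between iSP and E11.5 SP, beside 67.6%. *Upk3b* entered both tests only through E11.5 SP, and both of its calls were kept by edgeR with no filter on low values.

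For *Upk3b*, 3 of the 4 E11.5 SP libraries were above all 4 E11.5 UB libraries. The log2 difference, UB minus SP, was -0.45 ± 0.18 (SE; limma, adjusted p = 0.061) and did not pass. It passed in a fit of all 36 libraries (adjusted p = 0.0032), without E11.5 UB replicate 3 (-0.55, adjusted p = 0.032), without E11.5 SP replicate 4 (-0.60, adjusted p = 0.0070), with the cell source label for the UB age (-0.88, adjusted p = 0.0048) and in the blocked fit by replicate number (-0.45, adjusted p = 0.047). The level was near 0 in NP cells: 0 to 0.0779 normalised CPM in E11.5 NP, 0.0226 to 0.0923 in E12.5 NP and no read in the 4 iNP libraries, whose limits of detection were 0.0683 to 0.106. The eUB mean was thus at least 2.62-fold higher than the iNP limit of detection per library. By edgeR with no filter, *Upk3b* was higher in eUB than in iNP cells (adjusted p = 0.002), beside 40.2% of all genes called, and than in iSP cells (adjusted p = 0.042). It was higher in E11.5 UB than in E11.5 NP cells (log2 difference 1.76, limma, adjusted p = 2.5e-07) and in E12.5 UB than in E12.5 SP cells (1.30, adjusted p = 0.00011), where NP and SP held 4 and 7 reads, too few for a fold. *Upk3b* entered these limma tests only through the UB libraries, and both calls were kept by edgeR with no filter.

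Markers of mesothelium were followed beside *Upk3b* in the stroma. *Bnc1*, a zinc finger gene of mesothelium and other epithelia, was at 5.47, 3.26, 2.42 and 1.07 normalised CPM in E11.5 SP, at 0.975, 0.242, 0.143 and 0.229 in E12.5 SP and at 0.435 to 0.946 in iSP. *Muc16*, a mucin of mesothelium, was at 0.133, 0.243, 0.238 and 0.130 in E11.5 SP, with 0 to 0.0202 in E12.5 SP and no read in iSP. *Lrrn4* was at 0.416 to 0.778 in E11.5 SP, 0 to 0.0403 in E12.5 SP and 0.573 to 0.813 in iSP. *Gpm6a*, the remaining marker, did not follow *Upk3b*: it was at 0.988 to 1.51 in E11.5 SP, 0.488 to 2.25 in E12.5 SP and 0.997 to 2.03 in iSP. *Msln*, the gene of mesothelin, stayed at or under 0.1 normalised CPM in all SP libraries. Over the 5 mesothelial markers, the sum was 2.60 to 7.77 normalised CPM in E11.5 SP, 1.29 to 2.48 in E12.5 SP and 2.40 to 3.04 in iSP. In the ex-fetu UB libraries the sum was 3.88 to 7.78, with *Msln* at 1.64 to 5.02 and *Muc16* at 0, and in the eUB libraries it was 4.33 to 5.94. The 5 markers did not move together there: the eUB means of *Msln* (0.904 normalised CPM) and *Bnc1* (0.399) were under both ex-fetu UB means (3.45 and 3.51 for *Msln*, 0.581 and 0.726 for *Bnc1*), and those of *Gpm6a* (2.21) and *Lrrn4* (1.13) were above them (0.571 and 1.16 for *Gpm6a*, 0.870 and 0.821 for *Lrrn4*). *Muc16*, at 0 in the 8 ex-fetu UB libraries, was at 0, 0.177, 0.429 and 0.319 in the eUB libraries. The part of mesothelial cells in the *Upk3b* of these groups was not tested.

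**Figure D5:**
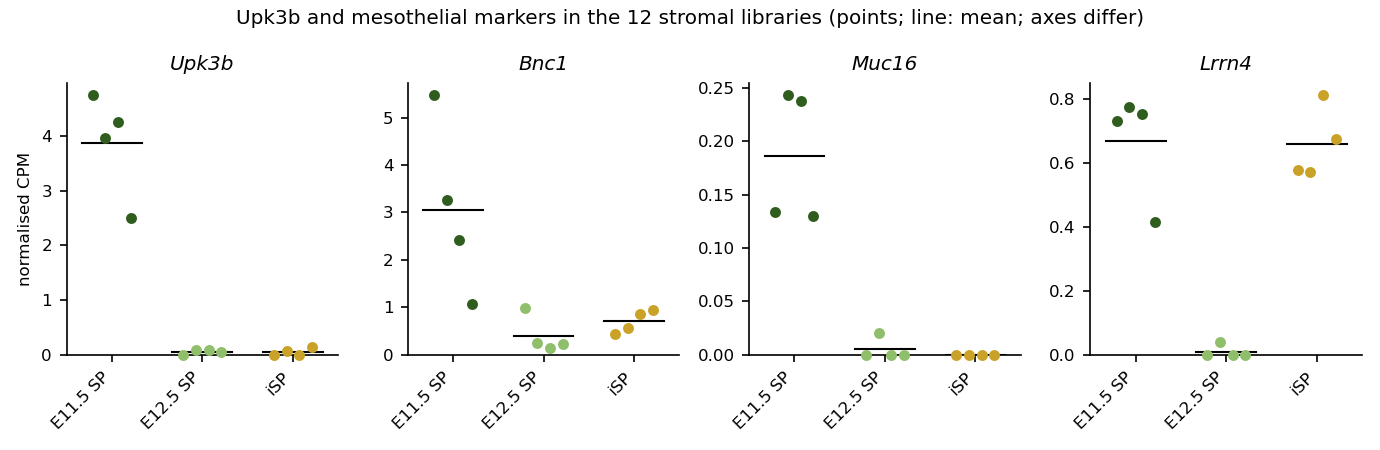
Normalised CPM of Upk3b and of the mesothelial markers Bnc1, Muc16 and Lrrn4 in the 12 stromal libraries (points; line, mean of 4; the axes differ). Upk3b is at 2.5 to 4.74 in E11.5 SP and at most 0.135 in E12.5 SP and iSP; Bnc1 and Muc16 are also highest in E11.5 SP, and Lrrn4 is as high in iSP as in E11.5 SP; of the 5 markers, Msln and Gpm6a are not drawn.

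*Upk1b* and *Upk2* were at the limit of detection in the mesenchyme. *Upk1b* had 19 reads in the 4 E11.5 SP libraries, at 0.234, 0.146, 0.159 and 0.0520 normalised CPM, and 3 to 5 reads in each of the other 5 mesenchymal groups. *Upk2* had 4 to 7 reads in each NP group, in iNP and in iSP, and no read in the 8 ex-fetu SP libraries, whose limits of detection were 0.0605 to 0.163. In eUB cells *Upk1b* had 1 to 11 reads a library, beside 0 to 1 in iNP, and *Upk2* had 3 to 6, beside 0 to 3 in iNP and 0 to 2 in iSP. By edgeR with no filter, *Upk1b* was higher in eUB than in iNP (adjusted p = 0.0064) and iSP cells (adjusted p = 0.028), and *Upk2* did not pass against iNP (adjusted p = 0.071) and passed against iSP (adjusted p = 0.043). By limma with no filter *Upk2* passed against both (adjusted p = 0.031 and 0.017).

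Whether the difference between mESC-derived and E11.5 cells itself differed between the bud and the mesenchyme was tested as an interaction. For the UB against the NP lineage, all 4 genes tested passed, beside 47.1% of all genes, and for the UB against the SP lineage all 4 passed, beside 47.4%. The 2 tests share the 8 UB libraries. *Aqp3* entered both tests only through E11.5 UB, and *Upk3b* only through E11.5 UB and, in the latter test, E11.5 SP, so these counts are a description too. For *Calb1* the log2 change in the bud minus that in NP was -4.92 ± 0.29 (SE; limma, adjusted p = 1.2e-09), and minus that in SP it was -3.21 ± 0.38 (adjusted p = 3.8e-06). For *Aqp3* the values were -1.15 ± 0.20 (adjusted p = 0.00019) and -0.86 ± 0.20 (adjusted p = 0.0024), the former kept by edgeR with no filter on low values and the latter not held by edgeR (-1.29, adjusted p = 0.12). For *Upk1a* they were -1.22 ± 0.37 (adjusted p = 0.013) and -1.22 ± 0.35 (adjusted p = 0.0089), and both calls were lost with the cell source label for the UB age (-0.33 in both, adjusted p = 0.34 and 0.26). For *Upk3b* the sign differed between the lineages: the value was -1.41 ± 0.15 against NP (adjusted p = 1.5e-06) and 0.72 ± 0.21 against SP (adjusted p = 0.0098). The former was not held on the scale of reads, where edgeR gave -0.06 (adjusted p = 0.43), with at most 2 reads of *Upk3b* in any E11.5 NP library and none in iNP.

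The genes most alike in level to each member over the 36 libraries were found by the Pearson correlation of log2(normalised CPM + 1) among the 16001 genes at 1 or more in at least 4 libraries. The libraries share groups and scaling, so the values describe shared differences between the 9 groups. For *Calb1* they were 1700011H14Rik (r = 0.970), *Dcdc2a* (0.968) and *Hkdc1* (0.967). For *Aqp3* they included the potassium channel gene *Kcnq1* (0.968) and *Adgrf1* (0.950). The values were lower for *Upk3b*, with *Efhd2* (0.898), *Ugt8a* (0.865) and *Lrrc8c* (0.844), and lowest for *Upk1a*, with *Rrp1* (0.756), *Ngfrap1* (0.732) and *Ifitm10* (0.716). Among the members, *Calb1* and *Aqp3* were closest (r = 0.864), then *Calb1* and *Upk3b* (0.634) and *Upk3b* and *Aqp3* (0.494), and *Upk1a* was not above 0.215 with any of the other 3.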

How the data were processed

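RNA was sequenced with a stranded mRNA kit in 36 libraries of 9 groups, and the study's methods name Cutadapt, STAR and edgeR. The genome is written GRCh38 in the sources, although the gene identifiers are those of mouse; the counting program and its strand setting are not given in the sources used here. The deposited signal values are normalised CPM, which the authors made from filtered read counts; in each library 100% of them came out as whole reads (tolerance 0.01). A further deposited table holds the authors' group means and their own log2 fold changes and p-values, and was not used. Positions and exon lengths came from GENCODE vM21 on GRCm38, which matched 99.5% of the genes.

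Groups of 4 were compared in 15 pairs and 2 differences of differences, with limma 3.58.1 in R 4.3.3 (trended moderated test) on log2(value + 1), over genes at 1 or more in at least 4 libraries of the comparison, with Benjamini-Hochberg adjustment over all genes tested and a threshold of 0.05. Fold changes on that scale understate the change of low genes. The alternatives were no filter, a pseudocount of 0.1, a fit of all 36 libraries, upper-quartile scaling, edgeR 4.0.16 (quasi-likelihood) on the recovered reads, the replicate number as a block, each library left out, and the age of UB samples from the cell source label; edgeR with no filter, for the members and the lining genes, was added after seeing the data. Single values were compared by the exact permutation test (35 splits, smallest two-sided p 0.0286). The scripts were tested on simulated data. The p-values measure the spread between these samples, which may be partly technical. Reads carry no molecular identifiers, so limits of detection cover counting error only.

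The members, the gene lists and the tests were chosen with earlier results of these data known. Genes named are the 8 members, from each list up to 3 called genes with the largest differences between eUB and E11.5 UB and those of highest level, and the 3 genes most alike to each member; some genes that the rule names are not reported here, and other named genes were chosen after their values were seen.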

Additional observations from a re-analysis of the deposited data

Results flagged for a closer look

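Of 51 groups of 4 values over the 6 genes and 9 groups, 5 had a library far from the other 3 (Dixon's test, 95% level), and chance flags about 1 in 20. *Calb1* was at 3.39 normalised CPM in E12.5 SP replicate 2, far above the rest of its group; *Wnt9b* (0.746) and *Cdh1* (3.16) were highest in the same library. The other 4 rest on 0 to 3 reads: *Upk1b* at 0.128 in E11.5 NP replicate 3 and at 0.0605 in E12.5 SP replicate 2, and *Upk2* at 0 in E12.5 UB replicate 3 and at 0 in iNP replicate 3.

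The change from E11.5 to mESC-derived cells differed between the bud and the mesenchyme by an interaction term (limma) for the 4 genes tested, of which *Aqp3* and *Upk3b* entered only through the E11.5 groups where they are high. Against the NP lineage the log2 difference of the changes was -4.92 for *Calb1*, -1.41 for *Upk3b*, -1.22 for *Upk1a* and -1.15 for *Aqp3*. Against the SP lineage it was -3.21 for *Calb1*, -1.22 for *Upk1a*, -0.86 for *Aqp3* and 0.72 for *Upk3b*. By edgeR the calls of *Upk3b* against NP (-0.06, adjusted p = 0.43) and of *Aqp3* against SP (-1.29, adjusted p = 0.12) were lost, and with the cell source label for the UB age those of *Upk1a* were lost (-0.33 in both).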

How the results depend on the processing

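Over 54 member values, 842 of 910 alternative values kept their direction and side of the threshold, 36 lost a call, 19 gained one and 13 turned sign, of which 1 had been called. With the age of UB samples taken from the cell source label, the E12.5 minus E11.5 UB differences became 0.89 (*Upk1a*), 0.071 (*Calb1*), -0.43 (*Aqp3*) and 0.43 (*Upk3b*), and *Upk1a* in E11.5 UB against NP became -0.53. *Calb1* in iNP against E12.5 NP turned to -0.13 by edgeR and to -0.11 by edgeR with no filter.

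Leaving out 1 library gave -0.15 to 0.065 for *Calb1* between the UB ages, and for *Upk1a* -0.084 to 0.094 in E12.5 UB against NP, -0.076 to 0.19 in iNP against E11.5 NP and -0.044 to 0.19 in iSP against E11.5 SP. The number of members called between the UB ages, 1, became 0 with no filter, 0 with a pseudocount of 0.1, 2 in a fit of all 36 libraries and 0 to 2 without 1 library. Between eUB and iNP, 2 called became 5 with no filter and 4 by edgeR with no filter, the last beside 40.2% of all genes. Between eUB and iSP, 1 became 5 with no filter, 5 by edgeR with no filter (beside 49.6% of all genes), 2 with upper-quartile scaling and 1 to 2 without 1 library. Apart from edgeR with no filter in the eUB comparisons, the share of all genes called under the alternatives was not worked out. The counts under the alternatives are therefore a description. With 1 library left out, 1 to 2 were called in iNP against E12.5 NP and in iSP against E11.5 SP (2 by edgeR with no filter in both), 0 to 1 between the NP ages, 1 to 2 in iSP against E12.5 SP and 1 to 2 between the SP ages. In iSP against E12.5 SP, 2 became 1 in a fit of all 36 libraries, 1 by edgeR and 1 by edgeR with no filter; between the SP ages, 2 became 1 by edgeR and 1 by edgeR with no filter. The causes were not tested.

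In no comparison did every same-numbered pair of libraries deviate together (correlation above 0.1). This rule cannot exclude pairing by replicate number. Between eUB and iSP the 4 correlations were 0.690, 0.223, 0.345 and 0.0571, and NP was not compared with SP, nor iNP with iSP. With the replicate block, the calls became 0 between the UB ages, 2 between eUB and iSP and 1 in iSP against E12.5 SP, each through *Upk1a*, and *Upk3b* in E11.5 UB against SP became a call (-0.45, adjusted p = 0.047). *Upk1b* and *Upk2* rest on 0 to 26 reads a group, which limits what can be seen of them.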
